A study of Mus musculus with 15 samples.

Results

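Osteopontin is encoded by Spp1 (secreted phosphoprotein 1), and 5 genes for receptor chains that bind it, Itgav, Itgb1, Itgb3, Itgb5 and Cd44, were examined with it in the mouse pituitary gland. The 6 genes were taken from the 55523 rows of the deposited gene table by their symbol, and each symbol had 1 row. Libraries were made from RNA of the whole pituitary of mice in which CRISPR/Cas9 had removed the pituitary enhancer (PE) from an intron of Nr5a1, the gene of the nuclear receptor NR5A1. Heterozygotes, with the enhancer lost from one chromosome (PE+/−), served as controls for homozygotes (PE−/−). There were 4 libraries of PE+/− males, 4 of PE−/− males, 4 of PE+/− females and 3 of PE−/− females, 15 in all. No mouse described here carried the enhancer on both chromosomes, and the deletion was present in every cell of the animal from fertilization. The study describes PE−/− mice of both sexes as infertile, so the glands compared came from animals whose reproductive state differed. The age of these mice is not given in the sources used here. In whole glands, fewer cells of a type and less RNA per cell cannot be told apart.

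Osteopontin is a secreted phosphoprotein of the small integrin-binding N-linked glycoprotein (SIBLING) family, known from bone matrix and from activated macrophages. It carries an arginine-glycine-aspartate (RGD) motif that integrins recognize. Integrins are cell surface receptors made of one alpha and one beta chain: the αv chain, from Itgav, pairs with β1, β3 or β5 to bind RGD ligands, while CD44, mainly a receptor for hyaluronan, has also been described as an osteopontin receptor.

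The table gave Spp1 as locus MSTRG.18897 and Ensembl gene ENSMUSG00000029304, annotated on the plus strand of mm10 at chr5:104435118-104441050. The receptor genes lay elsewhere, Itgav at chr2:83724397-83806916, Itgb1 at chr8:128685654-128733200, Itgb3 at chr11:104608000-104670476, Itgb5 at chr16:33829665-33949338 and, on the minus strand, Cd44 at chr2:102811141-102901665. A stretch of the Spp1 coding sequence is shown because it is the part through which the protein meets the integrins. It lies in exon 6 of 7, on the plus strand at chr5:104439466-104439510 of mm10, and the capitals mark the 3 codons of the RGD motif. The codons that follow the capitals specify the stretch that is known to be uncovered by thrombin cleavage.

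Spp1 RGD codons: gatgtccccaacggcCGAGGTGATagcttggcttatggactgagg

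The 250 bases upstream of the RefSeq start of Spp1 are shown because Spp1 was the one gene of the 6 called between genotypes. They lie on the plus strand at chr5:104434861-104435110 of GRCm38.p6, and the capitals mark AACCACA, the core letters bound by RUNX factors, and TTTAAA, resembling the TATA box. The RUNX letters began at position −129 and TTTAAA at position −20, with −1 as the last base before the start.

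Spp1 promoter: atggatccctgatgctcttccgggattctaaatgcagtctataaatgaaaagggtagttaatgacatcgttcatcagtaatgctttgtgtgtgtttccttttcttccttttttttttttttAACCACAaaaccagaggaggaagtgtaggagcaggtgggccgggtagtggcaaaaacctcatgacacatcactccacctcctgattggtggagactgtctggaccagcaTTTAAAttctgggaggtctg

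RefSeq promoter windows matched 5 of the 6 genes, with 6 windows in all, and none was found for Itgb3. The letters AAGGTCA, a half-site bound by NR5A1, were in none of the 6 windows on either strand, and 4.08% of all 32851 windows held them. The AP-1 letters TGANTCA, present in 6.75% of all windows, were also absent from these 6. AACCACA and TTTAAA, present in 4.40% and 12.1% of all windows, were found in the Spp1 window shown and in none of the other 5. A match or its absence describes only these letters in these windows.

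Library totals ran from 12982794 to 30238443 estimated counts, of which about 4 stood for 1 sequenced fragment, and levels are given as CPM, counts scaled to one common library size after trimmed-mean (TMM) normalization. Nr5a1 was present in every PE+/− library, at 33.7 to 80.2 CPM, and was at 0 to 0.897 CPM in every PE−/− library. Hormone and lineage genes of the anterior lobe (Gh, Prl, Pomc and 5 others) summed to 121151 CPM or more in all libraries, as the tissue label implies. Avp and Oxt, whose RNA reaches the posterior lobe in axons, were at 0 in all 7 female libraries, and a posterior lobe list of 5 genes ranged from 1.21 to 83.0 CPM in males. The replicates of a group are separate samples by their labels, and nothing in the labels says whether they are separate animals, so p-values measure the spread between these samples.

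Spp1 was the gene of the 6 that fell. In PE+/− males it measured 53.1, 37.1, 305 and 204 CPM in replicates 1 to 4, and in PE−/− males 9.51, 7.35, 23.0 and 20.6 CPM. In PE+/− females it measured 63.3, 58.7, 51.9 and 97.8 CPM, and in PE−/− females 14.3, 12.9 and 9.77 CPM. In both sexes every PE−/− library lay below every PE+/− library, a separation that 2.02% of the genes tested in males and 8.95% of those tested in females showed in that direction. The lowest PE+/− library of any sex (37.1 CPM) was above the highest PE−/− library (23.0 CPM). The 4 control males fell into a lower and a higher pair, and the higher pair was also above all control females.

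The mean level of Spp1 was 150 ± 128 CPM (SD, n = 4) in PE+/− males, 67.9 ± 20.5 CPM (n = 4) in PE+/− females, 15.1 ± 7.83 CPM (n = 4) in PE−/− males and 12.3 ± 2.33 CPM (n = 3) in PE−/− females. The neighbours of one genotype in this order, males and females, overlapped in range, and the genotypes did not. PE−/− males kept 10.1% of the control mean and PE−/− females 18.1%. The male share rested in part on PE+/− replicate 3, the library at 305 CPM, and was 15.4% without it.

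Whether the enhancer deletion altered these genes was tested by the quasi-likelihood F test of edgeR with Benjamini-Hochberg adjustment over all genes. With sex as a covariate and all 15 libraries in the fit, the log2 fold change of Spp1 was −2.92 (SE 0.45, adjusted p = 0.00694), a 7.55-fold lower level with a 95% interval of 6.77% to 25.9% of control. It was 1 of 6 genes called, against 1.17% of the 19286 genes tested. This call held without any 1 of the 15 libraries and under each of the other settings tried, where the adjusted p ranged from 1.03e-09 to 0.0233. Over all 19286 genes of this fit, 2443 were at an unadjusted p under 0.05 and DESeq2 called 768. These are the counts to set beside those of the gene lists below.

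Within one sex the evidence was thinner. In males the log2 fold change, −3.31 (SE 0.75), had an adjusted p of 0.290. Thus edgeR called 0 of the 6 genes here, against 0.132% of all genes. Spp1 alone of the 6 was at an unadjusted p under 0.05, as were 1067 of the 17392 genes tested. DESeq2 called Spp1 (adjusted p = 0.000111), 1 of 206 genes that it called. The study, which also used edgeR, counted Spp1 among the genes lower in PE−/− males at an adjusted p under 0.05, with a fold change limit as well. It does not say which edgeR test was used. Without one library at a time the male value ran from −3.63 to −2.70, the latter without PE+/− replicate 3. An exact permutation test of log2 CPM gave a two-sided p = 0.0286, the smallest that 4 against 4 libraries can give. In females the fall, −2.47 (SE 0.28), was called (adjusted p = 0.0194), 1 of 6 genes against 1.05% of all genes, and the exact permutation test gave p = 0.0571, again the smallest possible. The female call was lost without PE+/− replicate 2 (adjusted p = 0.0509) and without PE−/− replicate 1, 2 or 3 (0.0579, 0.0851 and 0.0895). It was also lost in one fit on all 15 libraries (adjusted p = 0.0590) and with the replicate number as a block (0.186). The difference between the sexes in this fall, tested as an interaction, was 0.85 (SE 0.83, adjusted p = 0.827), with a 95% interval of −0.94 to 2.64. For this difference edgeR called 0 of the 6 genes against 0.161% of all genes, with 0 at an unadjusted p under 0.05 and 0 called by DESeq2.

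**Figure D1:**
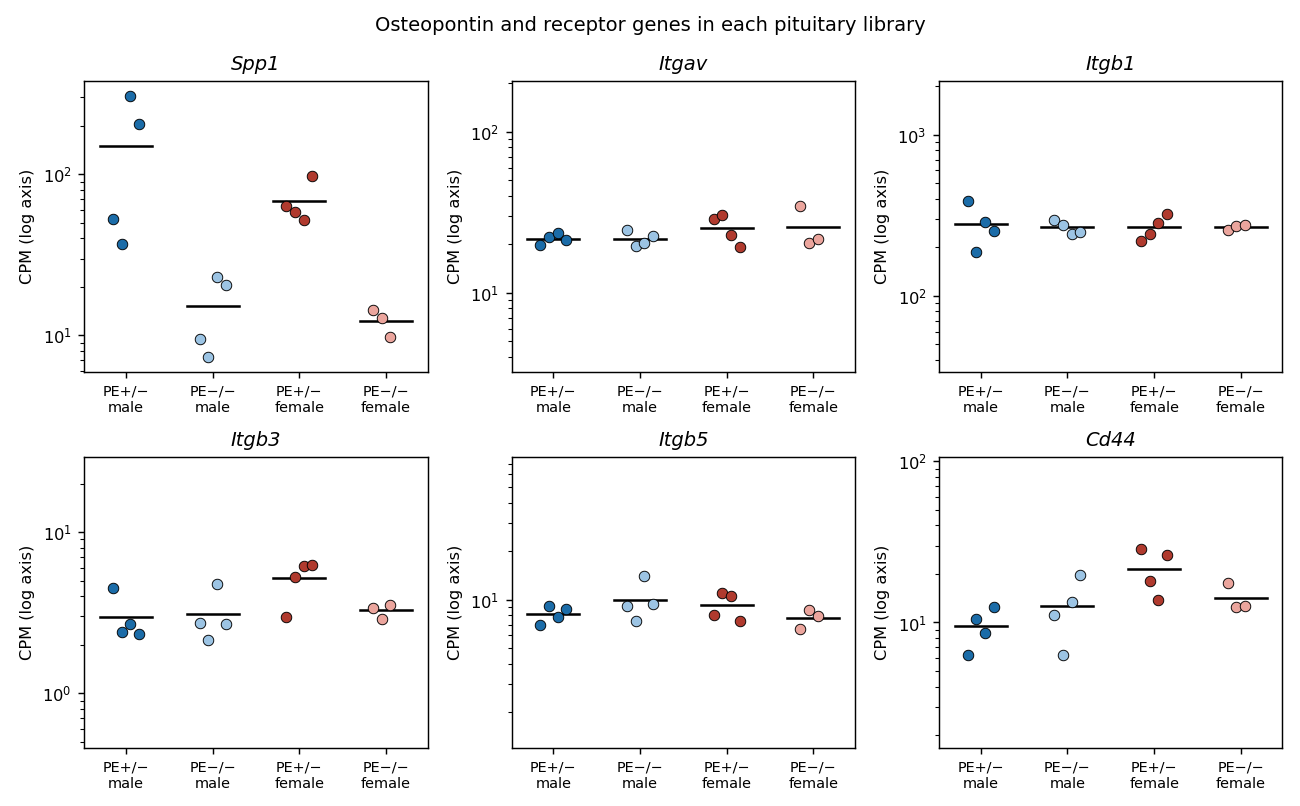
Level of each gene in each library, in CPM on a log axis that spans the same fold range in every panel, with points for libraries in the order of replicates 1 to 4 and a line for the group mean. Spp1 fell from 37.1 to 305 CPM in PE+/− libraries to 7.35 to 23.0 CPM in PE−/− libraries, and each receptor gene overlapped between genotypes in both sexes.

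A second annotated transcript, Gm42793, lies in the same assembled locus and on the same strand as Spp1 and shares 309 exon bases with it, so reads of the pair cannot be told apart there. Its row held 139 counts over all 15 libraries, against 188 to 5007 for Spp1 in each library. On these few counts Gm42793 also fell, by −3.12 (SE 0.56, adjusted p = 0.133) in males. With sex as a covariate it was at −2.98 (SE 0.54, adjusted p = 0.0163) and was called. Pkd2, the gene next to Spp1, served as a local reference: its log2 fold change was 0.01 (SE 0.13) in males and 0.17 (SE 0.22) in females, and it was not called.

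The fall of Spp1 was set beside that of a list of 8 gonadotrope genes, since gonadotropes, which secrete luteinizing hormone and follicle-stimulating hormone, are the pituitary cells that make NR5A1. Of these 8 genes 4 were called lower in males, 5 in females and 6 with sex as a covariate, and none was called higher. Over all genes tested, 0.132%, 1.05% and 1.17% were called in these comparisons, in that order. The list was not independent of these data, since Nr5a1 was the gene targeted. Of the list the study had named Fshb, Grem1 and Tgfbr3l in males and Nr0b1 in females as dependent on NR5A1, and also Spp1 in males. It chose genes that were lower in these PE−/− pituitary libraries and higher in isolated gonadotropes than in whole pituitary. The study describes Spp1 as high in gonadotropes of males but not of females, and those cells were not examined here. The mean of Nr5a1 itself in PE−/− glands was 0.691% of control in males and 1.87% in females. Lhb and Fshb, which encode the beta chains of those hormones, kept 3.06% and 2.68% in males and 7.88% and 9.86% in females. Gnrhr, the receptor for the hypothalamic releasing hormone, kept 3.70% and 7.17%, and Tgfbr3l, a coreceptor for inhibin B, kept 3.02% and 2.44%. Nr0b1, which encodes the nuclear receptor DAX1, kept 0.858% and 1.93%.

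Spp1, at 10.1% and 18.1%, retained a larger share of its control mean than these 6 genes in each sex when all libraries were used. Among females its order against Fshb rested on PE+/− replicate 4, which held 1754 CPM of Fshb against 163 to 359 CPM in the other 3 controls. Without that library Fshb kept 22.6% and Spp1 21.3%, and the order turned. The male share of Tgfbr3l was 7.40% without PE+/− replicate 3, and the shares of Nr5a1 and Nr0b1 stayed at or below 2.90% without any 1 library. It retained a smaller share than Cga, the common alpha chain also made by thyrotropes, at 61.6% and 77.5%. Grem1, a secreted inhibitor of bone morphogenetic proteins, was at 5.57% in males but 118% in females, where controls held only 1.22 ± 1.26 CPM (SD, n = 4). These shares are ratios of group means, and no difference between genes was tested.

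**Figure D2:**
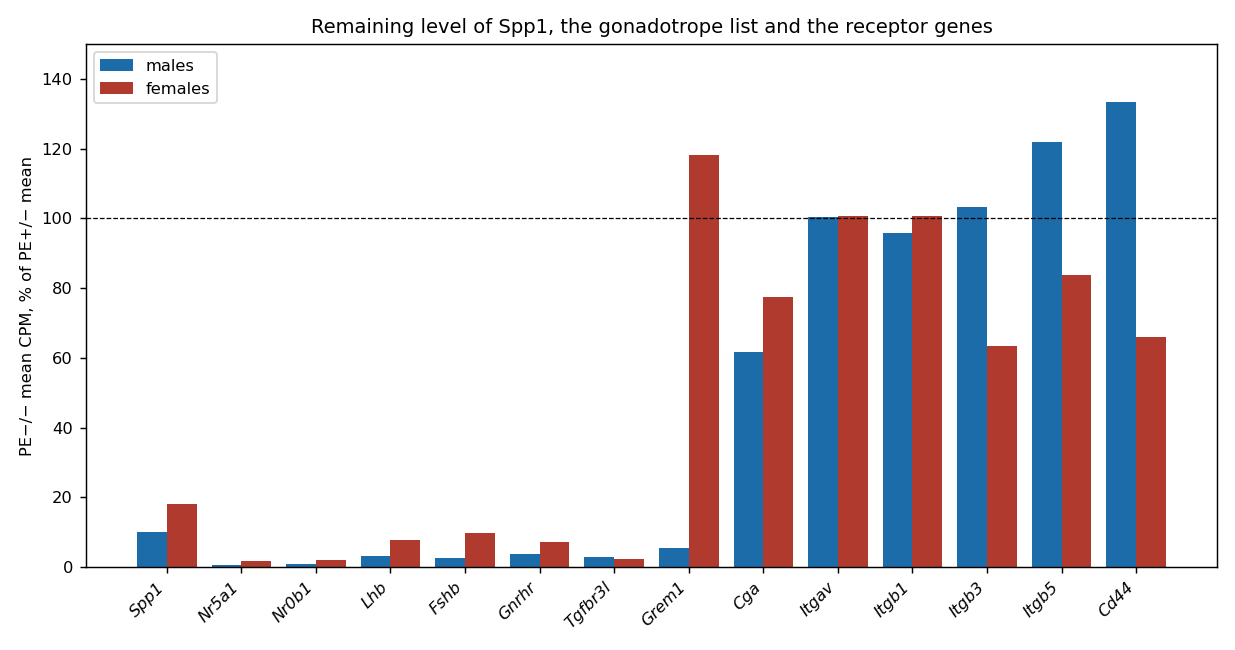
Mean CPM of the PE−/− group as a percentage of the PE+/− group, for males and females, with bars from 0 and a dashed line at 100%. Spp1 stands at 10.1% and 18.1%, above Nr5a1, Nr0b1, Lhb, Gnrhr and Tgfbr3l and, unless PE+/− female replicate 4 is left out, above Fshb, while Itgav and Itgb1 stand between 95.8% and 101%.

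The higher pair of control males for Spp1 was not a common high pair of the gonadotrope genes. Replicates 3 and 4, with 305 and 204 CPM of Spp1, held 462 and 353 CPM of Lhb, and replicates 1 and 2 held 577 and 310 CPM. Tgfbr3l was high in replicate 3 alone, at 298 CPM against 62.9, 38.0 and 30.2 CPM in replicates 1, 2 and 4. In PE−/− males the libraries with more Spp1 were those with more posterior lobe RNA: replicates 3 and 4 held 72.2 and 29.7 CPM of the posterior lobe list, and replicates 1 and 2 held 1.21 and 1.53 CPM. In PE+/− males the list stood at 1.48, 30.7, 4.76 and 83.0 CPM in replicates 1 to 4, an order unlike that of Spp1. In females the list was low but separated the genotypes in the direction of Spp1, at 3.83 to 17.3 CPM in PE+/− and 0.394 to 2.82 CPM in PE−/−. Its 1 gene tested there, Col25a1, was at −3.00 (SE 0.76, adjusted p = 0.115) and was called by DESeq2. With the 4 males above 20 CPM of this list left out, PE+/− replicates 1 and 3 and PE−/− replicates 1 and 2 remained. Spp1 was then at −4.41 (SE 0.95, adjusted p = 0.575) in males and at −3.14 (SE 0.52, adjusted p = 0.0233) with sex as a covariate. The PE−/− males left out were those with the most Spp1, and the part of posterior lobe RNA was not tested.

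Other cells that make osteopontin were looked for by their markers. In the bone list Bglap, Bglap2 and Sp7 were at 0 in all 15 libraries, and the list of 10 genes summed to 8.73 to 12.8 CPM in PE+/− males, 5.01 to 8.95 CPM in PE−/− males, 8.05 to 10.6 CPM in PE+/− females and 5.62 to 6.48 CPM in PE−/− females. Spp1 was 3.10 to 26.5 times this sum in PE+/− libraries and 1.10 to 3.69 times in PE−/− libraries. The sums themselves were lower in PE−/− females without overlap and overlapped between male groups by 1 library; none of the 6 tested members was called with sex as a covariate, 2 were at an unadjusted p under 0.05, and DESeq2 called 0. The macrophage list of 13 genes summed to 189 to 237 CPM in PE+/− males, 198 to 276 CPM in PE−/− males, 190 to 240 CPM in PE+/− females and 193 to 202 CPM in PE−/− females. The macrophage sum thus overlapped between genotypes in both sexes. With sex as a covariate 0 of 13 markers were called, 2 were at an unadjusted p under 0.05 and DESeq2 called 0. Changes of single markers in that fit ran from −2.30 to 0.60, with a median of 0.06.

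Among the lists for the remaining cells of the gland, 2 genes of the mesenchymal list were called lower. The 9 genes of this list summed to 705 to 816 CPM in PE+/− males and 440 to 595 CPM in PE−/− males, and to 735 to 1237 CPM in PE+/− females and 478 to 584 CPM in PE−/− females, with no overlap in either sex. Rgs5, a pericyte gene, was called lower with sex as a covariate (−0.98, SE 0.20, adjusted p = 0.0249), and Col1a2, a chain of type I collagen, was called lower in females (−1.95, SE 0.23, adjusted p = 0.0207). In males Col1a2 overlapped between genotypes, at 45.5 to 63.5 CPM in PE+/− and 28.3 to 72.3 CPM in PE−/− libraries. Rgs5 did not overlap there, at 387 to 588 CPM and 203 to 385 CPM. These 2 genes were then left out of the sums because they were called. The other 7 summed to 163 to 291 CPM in PE+/− males and 168 to 270 CPM in PE−/− males, and to 139 to 196 CPM and 165 to 212 CPM in females, with overlap in both sexes. This overlap is no test of the list, since the 2 genes were removed for their fall in these same data. The median change of all 9 with sex as a covariate was −0.11. The erythroid list of 5 globin and heme genes summed to 499 to 1263 CPM in PE+/− males and 204 to 895 CPM in PE−/− males, and to 571 to 1346 CPM and 384 to 791 CPM in females. With sex as a covariate 0 of 5 were called, 5 had a negative log2 fold change, 3 were at an unadjusted p under 0.05 and DESeq2 called 0. The endothelial list of 8 genes was at 104 to 384 CPM in PE+/− males and 100 to 125 CPM in PE−/− males, and at 140 to 186 CPM and 119 to 144 CPM in females. With sex as a covariate 0 of 8 were called, 8 had a negative log2 fold change, 5 were at an unadjusted p under 0.05 and DESeq2 called 1. Over all 19286 genes of this fit, 48.7% were negative, 2443 were at an unadjusted p under 0.05 and DESeq2 called 768. The stem and folliculostellate list was at 234 to 338 CPM in PE+/− males and 245 to 311 CPM in PE−/− males, and at 135 to 270 CPM and 231 to 261 CPM in females, with 0 of 6 tested genes called, 1 at an unadjusted p under 0.05 and 0 called by DESeq2. The platelet and megakaryocyte list, cells that carry αIIbβ3 integrin, did not exceed 6.89 CPM in any library. Of the 8 hormone and lineage genes of the other anterior lobe cells, Prl, the prolactin gene of lactotropes, was the 1 called within a sex. It was at 21965 to 35113 CPM in PE+/− females and 4459 to 5603 CPM in PE−/− females (−2.58, SE 0.21, adjusted p = 0.00698), a log2 fold change near that of Spp1. In males it was at 12285 to 31182 CPM and 4753 to 41223 CPM, and the interaction with sex was not called (−2.40, SE 0.76, adjusted p = 0.274). The part of these cells in the fall of Spp1 was not tested.

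The alpha chain shared by the RGD-binding integrins overlapped between genotypes. Itgav measured 19.7, 22.2, 23.6 and 21.2 CPM in PE+/− males and 24.5, 19.6, 20.3 and 22.5 CPM in PE−/− males. In females it measured 28.8, 30.6, 22.8 and 19.2 CPM in PE+/− and 34.7, 20.4 and 21.7 CPM in PE−/−. The groups overlapped throughout, and 1 PE−/− female held the highest value of all. With sex as a covariate the log2 fold change was 0.01 (SE 0.13, adjusted p = 0.992), with a 95% interval of 82.5% to 122% of control. An antisense transcript, Gm13684, shares 634 exon bases with Itgav, and its row held 138 counts in all libraries together.

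Itgb1, the most abundant of the beta chains and a partner of many alpha chains, also overlapped between genotypes. It measured 387, 187, 286 and 252 CPM in PE+/− males and 298, 277, 243 and 247 CPM in PE−/− males. In females it measured 218, 241, 283 and 321 CPM in PE+/− and 256, 270 and 276 CPM in PE−/−. The PE−/− libraries lay inside the range of the controls of their sex, and the log2 fold change with sex as a covariate was −0.03 (SE 0.13, adjusted p = 0.971, 95% interval 80.3% to 120% of control).

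Itgb3, the chain of the classical osteopontin receptor αvβ3, was the least abundant of the 6 genes per exon length. It measured 4.51, 2.41, 2.68 and 2.33 CPM in PE+/− males and 2.73, 2.14, 4.78 and 2.67 CPM in PE−/− males, from 36 to 102 counts in each library. In females it measured 2.97, 5.28, 6.15 and 6.29 CPM in PE+/− and 3.40, 2.91 and 3.55 CPM in PE−/−. Replicates 2 to 4 of the control females were above all other libraries, and replicate 1 was not. The log2 fold change was 0.05 (SE 0.34, adjusted p = 0.995) in males and −0.66 (SE 0.30, adjusted p = 0.332) in females, where the 95% interval ran from 39.0% to 102% of control.

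Itgb5, the beta chain of αvβ5, ranged from 6.61 to 14.1 CPM over all libraries. It was 8.19 ± 0.995 CPM (SD, n = 4) in PE+/− males, 9.98 ± 2.85 CPM (n = 4) in PE−/− males, 9.22 ± 1.76 CPM (n = 4) in PE+/− females and 7.73 ± 1.04 CPM (n = 3) in PE−/− females. All 4 groups overlapped, and the log2 fold changes, 0.28 (SE 0.22) in males and −0.26 (SE 0.21) in females, were not called (adjusted p = 0.972 and 0.628).

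Cd44 was the receptor gene with the widest spread among groups. It measured 6.27, 10.6, 8.60 and 12.5 CPM in PE+/− males and 11.2, 6.28, 13.4 and 19.8 CPM in PE−/− males. In females it measured 28.4, 18.2, 13.7 and 26.1 CPM in PE+/− and 17.5, 12.5 and 12.7 CPM in PE−/−. Control females lay above control males without overlap, and the PE−/− groups lay between them and overlapped both. The log2 fold change with genotype was 0.41 (SE 0.35, adjusted p = 0.972) in males and −0.61 (SE 0.29, adjusted p = 0.362) in females, and the difference between these, −1.02 (SE 0.49), was not called either (adjusted p = 0.514, 95% interval −2.07 to 0.03).

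**Figure D3:**
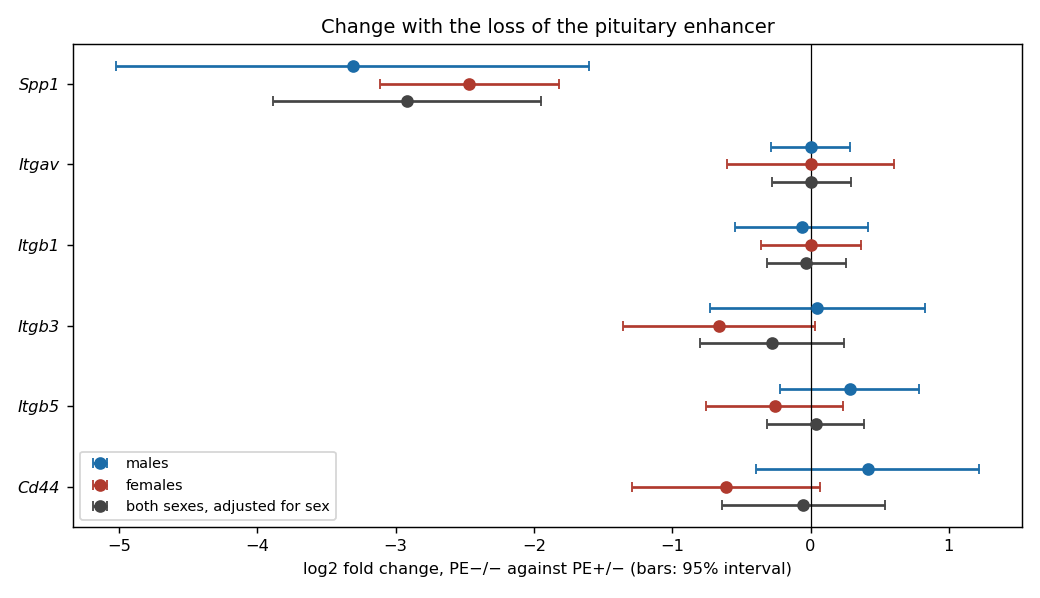
log2 fold change of PE−/− against PE+/− for each gene, with bars for the 95% interval of the fit, in males, in females and with sex as a covariate. The 3 intervals of Spp1 lie below 0, from −3.31, −2.47 and −2.92, and all 15 intervals of the receptor genes include 0.

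The levels of the 6 genes were also compared between the sexes. In PE+/− mice edgeR called 0 of 6 genes against 0.670% of all genes. Of the 6, 2 genes, Cd44 and Itgb3, were at an unadjusted p under 0.05, as were 2311 of the 17163 genes tested. DESeq2 called 1 of the 6, Cd44 (adjusted p = 0.00892), among the 900 genes that it called. Cd44 was 2.29-fold higher in control females (log2 fold change 1.19, SE 0.30, adjusted p = 0.128, 95% interval 1.43-fold to 3.65-fold), and it was 1 of 6 genes whose groups did not overlap, against 9.75% of all genes. Itgb3 was 1.74-fold higher in control females (0.80, SE 0.33, adjusted p = 0.339). For Spp1 this log2 fold change was −1.14 (SE 0.63, adjusted p = 0.490), with ranges that overlapped, and it was −0.53 without PE+/− male replicate 3.

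In PE−/− mice edgeR called 0 of 6 genes between the sexes against 0.0494% of all genes, with 0 at an unadjusted p under 0.05 and 0 called by DESeq2, and 0 of 6 were separate between the sexes against 5.24% of all genes. Spp1 differed by −0.29 (SE 0.42), Cd44 by 0.17 (SE 0.36) and Itgb3 by 0.09 (SE 0.31). These comparisons share their libraries with those of genotype and are not independent of them.

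To compare genes, CPM was divided by the length of annotated exon in kb. Over the 15 libraries Itgb1 was highest of the integrin subunits, at a mean of 66.0 CPM per kb (range 45.9 to 94.9), and Itgav, Itgb5 and Cd44 stood at 2.18, 2.49 and 2.14 CPM per kb. The ranges of these last 3 overlapped, 1.79 to 3.23, 1.86 to 3.96 and 0.926 to 4.20 CPM per kb. Itgb3 was lower, at 0.619 CPM per kb (range 0.363 to 1.07). In the 8 control libraries the mean of Spp1 was 66.1 ± 58.0 CPM per kb (range 22.5 to 185). That of Itgb1 was 66.6 ± 15.4 CPM per kb (range 45.9 to 94.9). The nearness of these means rested on PE+/− male replicates 3 and 4, at 305 and 204 CPM of Spp1. In every other control library Spp1 was below Itgb1 per kb. The Spp1 mean was above all other genes of this group. Its lowest library in all, at 4.46 CPM per kb, was still above the highest library of Itgb5, Itgav, Cd44 or Itgb3.

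Of the other subunits the 5 highest were Itga3 at 5.23, Itgb2 at 0.840, Itga6 at 0.814, Itgb8 at 0.813 and Itga8 at 0.664 CPM per kb. Itga3 and Itga6 encode laminin-binding chains that pair with β1, Itgb2 encodes the leukocyte beta chain, and Itgb8 and Itga8 encode chains of RGD-binding integrins. Itga4 and Itga9, whose products with β1 bind the stretch uncovered by thrombin, stood at 0.333 and 0.312 CPM per kb. Genotype moved none of the 24 tested subunits past the threshold with sex as a covariate, with 3 at an unadjusted p under 0.05 and 2 called by DESeq2. Itga6 was still higher in PE−/− libraries without overlap in both sexes. In males it held 6.98 to 9.31 against 2.46 to 5.92 CPM, and in females 10.5 to 14.5 against 2.18 to 7.97 CPM. Itga3 and Itgb8 were so in females alone. The share of all genes separated upward is not given here. Itga10 was lower without overlap in both sexes, as were 2.02% of genes in males and 8.95% in females. The lowest change was that of the collagen-binding chain gene Itga10 at −1.55 (SE 0.55) and the highest that of Itgae at 1.09 (SE 0.55), and the median over the list was 0.06, against 0.01 for all genes.

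**Figure D4:**
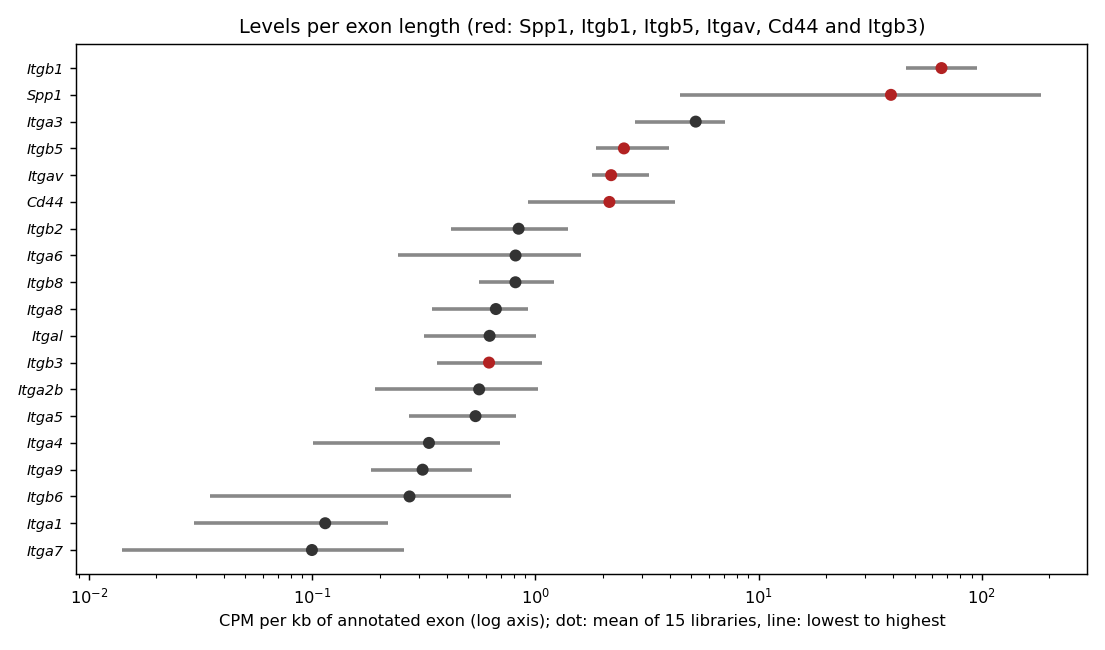
CPM per kb of annotated exon of Spp1, Cd44 and the integrin subunits with at least 1 count in every library, on a log axis. Dots are means of 15 libraries, lines run from the lowest to the highest library, and red marks the 6 genes described: Itgb1 leads at 66.0, and Spp1 has the longest line, from 4.46 to 185.

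The other SIBLING genes were barely detected. Dspp and Mepe were at 0 in all libraries, Ibsp was at 0 in 13 of 15 libraries, and Dmp1 reached 30 counts at most. The log2 fold change of Dmp1 with sex as a covariate was −2.59 (SE 1.20, adjusted p = 0.387, unadjusted p = 0.0473). Spp1 was the 1 of the 2 tested genes of its family that was called.

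Among 18 genes for other ligands of these receptors, Thbs1, which encodes thrombospondin-1, was called with genotype. It measured 3.31, 5.57, 4.88 and 3.69 CPM in PE+/− males and 7.13, 5.86, 7.12 and 5.80 CPM in PE−/− males. In females it measured 4.61, 2.72, 4.96 and 3.48 CPM in PE+/− and 11.4, 9.13 and 7.09 CPM in PE−/−. The log2 fold change with sex as a covariate was 0.87 (SE 0.19, adjusted p = 0.0372), in the opposite direction to that of Spp1. Thbs1 was the 1 called of 17 tested genes of this list, against 1.17% of all genes. Of these 17 genes, 7 were at an unadjusted p under 0.05 and DESeq2 called 3, against 2443 and 768 of all 19286 genes. Tnc, which encodes tenascin-C, was highest at 1.17 (SE 0.33, adjusted p = 0.116).

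Ccn3, the lowest of these ligand genes with sex as a covariate (−1.50, SE 0.55, adjusted p = 0.252), encodes a matricellular protein. In males its PE−/− libraries lay below all controls, a separation that 2.02% of the genes tested in males showed in that direction. Ccn3 measured 6.77, 14.9, 22.3 and 11.6 CPM in PE+/− males and 1.01, 1.53, 3.14 and 2.05 CPM in PE−/− males. In females it stayed between 0.547 and 3.05 CPM in both genotypes. The male change was −2.84 (SE 0.46, adjusted p = 0.0952), and the interaction with sex was 2.90 (SE 0.71, adjusted p = 0.142). Neither passed the threshold. Mfge8, which encodes an RGD protein that binds αvβ3 and αvβ5, was called between the sexes in controls, at 301, 327, 330 and 390 CPM in females against 131, 157, 145 and 120 CPM in males (log2 fold change 1.29, SE 0.13, adjusted p = 0.00773).

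Of 13 genes for enzymes that cleave, crosslink, phosphorylate or dephosphorylate osteopontin, 7 could be tested with sex as a covariate and none was called, with 3 at an unadjusted p under 0.05 and 0 called by DESeq2. Their changes ran from −1.22 (SE 0.42) for the endopeptidase gene Phex to 0.82 (SE 0.26) for the gelatinase gene Mmp2. Of 28 genes of the integrin adhesion complex 27 were tested and none was called, with 6 at an unadjusted p under 0.05 and 2 called by DESeq2. The median change was −0.02, against 0.01 for all genes. Vcl, the gene of vinculin, was lowest at −1.91 (SE 0.75, adjusted p = 0.285), and its libraries fell into a level of 1.42 to 2.88 CPM and one of 17.8 to 26.9 CPM, with both levels present among control males and control females. Apbb1ip, which encodes a Rap1 effector, was highest at 1.03 (SE 0.31, adjusted p = 0.139).

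Of 16 genes for hyaluronan metabolism and partners of CD44, 15 were tested and none was called, with 5 at an unadjusted p under 0.05 and 1 called by DESeq2. They ran from −0.84 (SE 0.31) for the link protein gene Hapln1 to 1.25 (SE 0.55) for the versican gene Vcan. The median of this list was −0.03.

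Genes whose profile was most like that of each of the 6 were found by Pearson's r of log2 CPM over the 15 libraries, among 16027 genes, as a description in which the group differences are shared. For Spp1 these were Fam110c (r = 0.903), Gm10354 (0.860), Cdc42ep5 (0.855), Foxp2 (0.855) and Sult5a1 (0.853). Fam110c and Cdc42ep5 encode cytoskeletal regulators, Foxp2 a forkhead transcription factor and Sult5a1 a sulfotransferase. All 5 were lower in PE−/− glands with sex as a covariate, from −0.66 for Cdc42ep5 to −3.30 for Sult5a1 and −8.83 for Gm10354. The last was at 0 in every PE−/− library. With the group means removed, r to Spp1 was 0.585 for Fam110c, 0.748 for Cdc42ep5 and 0.196 for Sult5a1. Of the gonadotrope list Tgfbr3l ranked 6 (r = 0.851), Nr0b1 8 (0.841), Gnrhr 13 (0.832), Nr5a1 18 (0.815), Lhb 19 (0.809) and Fshb 24 (0.781), and Cga ranked 4082 (0.198). With the group means removed, r was −0.163 for Nr5a1, −0.205 for Lhb and 0.441 for Tgfbr3l.

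The receptor genes were most like other genes. Itgav was nearest to Dcun1d1 (r = 0.846) and Fto (0.828), Itgb1 to Esyt1 (0.939) and E330009J07Rik (0.926), Itgb5 to Crisp1 (0.850) and AC126807.1 (0.799), and Itgb3 to Dap (0.900) and Myc (0.867). Cd44 was nearest to Endou (0.834) and Phldb2 (0.828). Phldb2, which encodes a protein that anchors microtubules at the cell cortex, shared the high level of control females. It measured 95.7, 87.0, 60.7 and 135 CPM there, against 15.9 to 25.9 CPM in control males, 19.2 to 44.5 CPM in PE−/− males and 23.6 to 32.6 CPM in PE−/− females. Col1a2 of the mesenchymal list likewise stood at 134 to 199 CPM in control females and at 28.3 to 72.3 CPM in the other 3 groups.

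**Figure D5:**
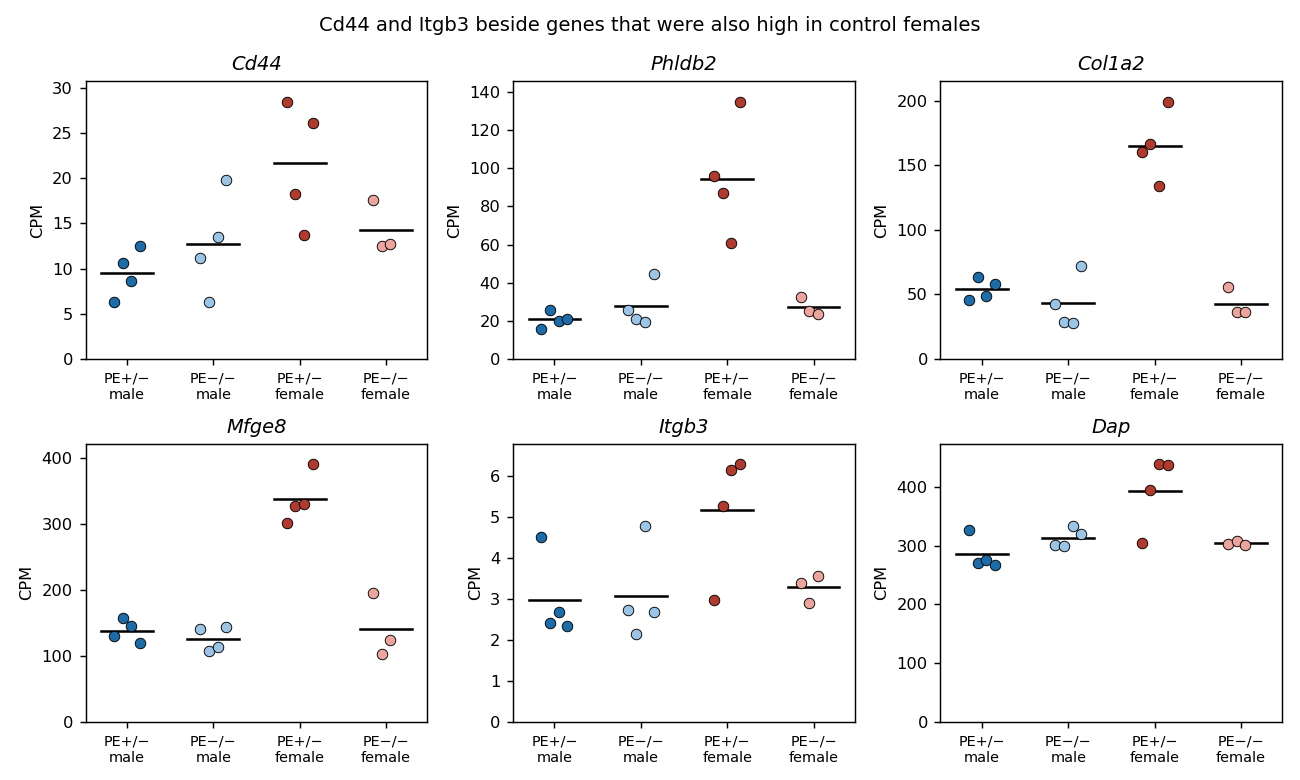
CPM of Cd44, Phldb2, Col1a2, Mfge8, Itgb3 and Dap in each library, with linear axes from 0 and a line for the group mean. Control females stand above the other groups for Phldb2 (60.7 to 135 CPM), Col1a2 (134 to 199 CPM) and Mfge8 (301 to 390 CPM), and overlap PE−/− libraries for Cd44.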

How the data were processed

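The 6 genes and all gene lists were chosen with earlier results of these data known. RNA of whole pituitary glands was made into libraries with a low-input kit, and the methods of the study name cutadapt for trimming, STAR for mapping to mm10 and featureCounts for counting. The file that the authors deposited held unnormalized, whole-number estimated counts with genes named by assembled locus, a step that is not given in the sources used here. Values of 5, 9 and 13 were 1.41, 1.16 and 1.07 times as frequent as their neighbours, so about 4 counts were 1 fragment, and strand use in counting is unknown. Every column matched a sample (0 unmatched). Replicate pairs differed by more than counting noise (chi-square per degree of freedom 71.4 to 231).

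edgeR 4.0.16 in R 4.3.3 was run on filterByExpr genes (minimum count 10, total 15) with TMM factors and a threshold of 0.05. The SE is the log2 fold change divided by the root of F, and 95% intervals use the fit's degrees of freedom. CPM levels of each library used the same scaling. Exon lengths and coordinates came from GENCODE M21. Named genes were the 6, Nr5a1, the 5 other integrin subunits of highest CPM per kb, list genes past the threshold (at most 4), the extremes of each list other than those of cell markers, and for likeness the 5 genes (Spp1) or 2 genes (receptors) of highest r with a mean of at least 20 counts. Other genes were named after their values were seen. Alternatives were DESeq2 1.42.0, its size factors, library totals, no filter, a replicate block, all 15 libraries in one fit and leaving out each library; counts divided by 4 and leaving out 4 males with posterior lobe RNA, shares of control without each library and the mesenchymal sum without 2 genes were chosen after seeing the data. Scripts were tested on simulated data. Isolated gonadotropes were not analysed here.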

Additional observations from a re-analysis of the deposited data

Results flagged for a closer look

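In PE+/− males, replicate 1 stood apart for Itgb3, at 4.51 CPM against 2.33 to 2.68 CPM in the other 3 libraries, a gap that made up most of the range of the group. It rested on 64 counts, against 36 to 52 in the others, and about 1 in 20 groups is picked out in this way by chance. Without this library the male change of Itgb3 was 0.32 on the log2 scale (adjusted p = 0.937), in place of 0.05.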

How the results depend on the processing

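With sex as a covariate the fall of Spp1 kept its direction and its call under every alternative run, and its log2 fold change stayed between −3.05 and −2.58 without any 1 library. In males DESeq2 gave −3.32 for Spp1 and called it, which made 1 gene of the 6 in place of 0; in females one fit on all 15 libraries gave −2.46 (adjusted p = 0.0590), which left 0 genes called. The replicate numbers did not pair the samples (correlation of deviations −0.08 to 0.13 over 21 pairs of the same number, −0.13 to 0.17 over 63 others). With the number as a replicate block, Spp1 in females was −2.26 (adjusted p = 0.186), with 0 of the 6 genes called and 1 of all genes in place of 189, and the difference of Spp1 between the sexes in PE−/− mice turned from −0.29 to 0.071. Without one library at a time, Spp1 in females ran from −2.58 to −2.25, with 0 to 1 genes called. Between control females and males DESeq2 called 1 gene, Cd44. The cause of these changes was not tested.

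Receptor changes near 0 turned sign, none of them called. Itgav in males became −0.0043 with DESeq2, −0.0023 with its size factors, −0.00032 with the block and −0.00077 with counts divided by 4. In females it became −0.016 with library totals, −0.14 with the block and −0.020 with counts divided by 4, and with sex as a covariate −0.0089, −0.0066, −0.023 and −0.0060 with DESeq2, its size factors, the block and counts divided by 4. Itgb1 became 0.024 in males and 0.013 with sex as a covariate under library totals, and −0.012 in females with counts divided by 4. With the 4 males of high posterior lobe RNA left out, Itgb3 in males became −0.57 and Itgb5 with sex as a covariate −0.094. Without one library at a time, Itgav ran from −0.062 to 0.049 in males, from −0.27 to 0.13 in females and from −0.10 to 0.051 with sex as a covariate, and Itgb1 from −0.21 to 0.14, from −0.077 to 0.097 and from −0.098 to 0.079. Itgb3 in males ran from −0.25 to 0.32, and Itgb5 and Cd44 with sex as a covariate from −0.087 to 0.11 and from −0.24 to 0.048. Between the sexes in PE−/− mice Itgb3 ran from −0.051 to 0.39 and Cd44 from −0.055 to 0.47.

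Over all genes, calls in males, in females, with sex as a covariate, for the interaction, between control sexes and between PE−/− sexes were 23, 189, 226, 31, 115 and 9, against 206, 1431, 768, 392, 900 and 41 with DESeq2 and 0, 1, 88, 11, 0 and 0 with the block. One fit on all 15 libraries called 37 in males, 714 in females, 421 between control sexes and 6 between PE−/− sexes. Without the low-count filter 123 were called in females, 151 with sex as a covariate and 66 between control sexes, and with the 4 males left out 0 were called in males. The sum of all rows of a symbol was not run, since each gene had 1 row. Itgb3 rested on 36 to 126 counts in each library, about 1 fragment for each 4 counts. Small differences of Itgb3 were not detectable with these counts and this number of libraries, and the part of depth was not tested.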
